A study of Mus musculus with 4 samples.

Results

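The genes described here are 40 genes of the lysosome and of autophagy, out of 26180 RefSeq genes. They were chosen by name for what their products do, in 4 role groups: 17 proteases, other hydrolases and their precursors, 10 subunits of the proton pump, 6 membrane proteins and 7 autophagy genes. An accessible region was assigned to a gene when that gene had the nearest transcription start site (TSS) or when the region overlapped the gene body. By that rule 247 of 70744 accessible regions belonged to the 40 genes, 219 by the nearest TSS and 28 through the gene body alone.

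ATAC-seq, in which a transposase inserts sequencing adaptors into open DNA, was run on large peritoneal macrophages (LPMs) sorted from 9-week-old C57BL/6 mice. Controls were Rxrab fl/fl mice, which carry floxed alleles of Rxra and Rxrb and no Cre, and the mutants were LysMCre+ Rxrab fl/fl mice, in which Cre is expressed from the LysM locus in myeloid cells. Each genotype had 2 libraries of 40000 sorted cells, called control 1 and control 3 (replicates 1 and 3 of Rxrab fl/fl) and LysMCre+ 1 and LysMCre+ 2 below. The labels do not say that the libraries of a genotype came from separate mice, and the peak lists give no measure of how completely Cre had removed the floxed exons. The study states that ATAC-seq samples that did not group with their genotype in diagnostic plots were left out.

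Lysosomes are acidic organelles in which proteases, glycosidases and lipases degrade material taken up by endocytosis and phagocytosis or delivered by autophagy, and a vacuolar proton pump keeps their lumen acidic. Macrophages carry many lysosomes, and resident peritoneal macrophages clear dying cells. Many lysosomal genes carry a CLEAR element (coordinated lysosomal expression and regulation), an extended E-box bound by Tfeb and related factors, in their promoters.

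The CLEAR element was searched for as the letters GTCACGTG on both strands of the RefSeq promoters of these genes, each 300 bases long and ending just after the start site. These letters contain the E-box CACGTG, so each CLEAR-like match is also an E-box match. The promoter table held 40 promoters of 32 of the genes. Asah1, Atp6v0d2, Atp6v1b2, Atp6v1c1, Atp6v1h, Becn1, Ctsb and Ctsh had no entry. There were 14 matches in the promoters of 10 genes, between 245 bases upstream of a start site and 5 bases downstream of it. They are printed because 25.0% of these promoters held the letters, against 2.25% of all RefSeq promoters. Each line gives 30 bases from mm10 (GRCm38.p6, RefSeq) on the strand that reads GTCACGTG, with the match in capitals and its coordinates and the strand of the gene in the name.
Atg7 (chr6:114670962-114670969, gene on the plus strand): ccatattggtgGTCACGTGtgcagtaagtg
Atp6v0b (chr4:117887360-117887367, gene on the minus strand): tgtgcgcggggGTCACGTGgggtcggcgca
Atp6v0d1 (chr8:105566062-105566069, gene on the minus strand): gccctactgcgGTCACGTGagacgcggtgc
Cln3 (chr7:126583350-126583357, gene on the minus strand, printed from the other strand): gcaggttggggGTCACGTGacagtacccgt
Cln3 (chr7:126583352-126583359, gene on the minus strand): tcacgggtactGTCACGTGacccccaacct
Ctsa (chr2:164833759-164833766, gene on the plus strand): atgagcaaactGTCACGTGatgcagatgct
Ctsa (chr2:164833778-164833785, gene on the plus strand, printed from the other strand): gtgtagctctgGTCACGTGagcatctgcat
Ctsd (chr7:142387918-142387925, gene on the minus strand, printed from the other strand): gccctcaacggGTCACGTGagacgcgggcg
Ctsd (chr7:142388065-142388072, gene on the minus strand, printed from the other strand): actggatacagGTCACGTGggggaaggaag
Glb1 (chr9:114401028-114401035, gene on the plus strand): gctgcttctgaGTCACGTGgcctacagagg
Lamp1 (chr8:13159133-13159140, gene on the plus strand, printed from the other strand): cacgtgatgtgGTCACGTGccagtcggcat
Lgmn (chr12:102439136-102439143, gene on the minus strand): atggaatgtctGTCACGTGgtccattttat
Mcoln1 (chr8:3500446-3500453, gene on the plus strand): gggtcgcgcttGTCACGTGttcagttcagg
Mcoln1 (chr8:3500474-3500481, gene on the plus strand, printed from the other strand): catgcgccgcgGTCACGTGagcggggcgcc

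No region called in all 4 libraries overlapped the 4 promoters that held the matches of Atg7, Cln3, Lamp1 and Lgmn. The lines of Cln3 that start at 126583350 and 126583352 are overlapping matches on opposite strands of the same bases.

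Mcoln1 encodes a lysosomal calcium channel, and its promoter held a match on each strand. Lamp1 encodes an abundant glycoprotein of the lysosomal membrane, and its promoter held 4 E-boxes, 1 of them within a CLEAR-like match. Both promoters are printed from 5′ to 3′ on the plus strand, which is the strand of both genes, with E-boxes and CLEAR-like matches in capitals.
Mcoln1 promoter (chr8:3500269-3500568, plus strand): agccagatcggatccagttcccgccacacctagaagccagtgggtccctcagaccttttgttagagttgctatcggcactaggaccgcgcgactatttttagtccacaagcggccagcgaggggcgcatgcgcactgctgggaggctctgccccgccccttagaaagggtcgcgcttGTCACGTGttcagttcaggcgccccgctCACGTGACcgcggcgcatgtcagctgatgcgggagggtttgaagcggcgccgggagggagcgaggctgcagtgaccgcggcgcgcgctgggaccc
Lamp1 promoter (chr8:13158911-13159210, plus strand): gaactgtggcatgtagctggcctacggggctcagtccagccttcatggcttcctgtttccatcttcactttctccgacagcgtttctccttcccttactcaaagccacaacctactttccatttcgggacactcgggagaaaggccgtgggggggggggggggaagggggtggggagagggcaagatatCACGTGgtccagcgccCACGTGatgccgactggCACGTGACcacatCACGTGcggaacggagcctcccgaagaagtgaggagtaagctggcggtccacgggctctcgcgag

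The results below turn on a small number of regions, whose central 201 bases are printed next. They are the Ctsh intron region that only the LysMCre+ libraries called, and the regions with the 4 most negative changes in signal. Each window lies 100 bp either side of the strongest summit and is read on the plus strand of mm10, with matches to any motif searched in capitals. The motifs were the E-box, the CLEAR-like letters, the M-box TCATGTGA, the PU.1 letters GAGGAAGT, the AP-1 letters TGANTCA, the C/EBP letters TTGCNNAA, the GATA letters AGATAA and the DR1 element of 2 AGGTCA half-sites with 1 base between.
Ctsh intron (chr9:90067487-90067687, plus strand): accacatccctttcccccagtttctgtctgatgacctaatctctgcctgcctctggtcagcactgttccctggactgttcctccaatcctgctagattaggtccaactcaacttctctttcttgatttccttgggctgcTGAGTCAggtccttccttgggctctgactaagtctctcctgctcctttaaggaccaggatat
Tfeb intron (chr17:47757138-47757338, plus strand): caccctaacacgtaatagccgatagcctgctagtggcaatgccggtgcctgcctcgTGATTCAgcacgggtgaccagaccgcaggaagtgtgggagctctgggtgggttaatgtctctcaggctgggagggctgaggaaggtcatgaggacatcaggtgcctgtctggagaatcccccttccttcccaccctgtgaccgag
Atp6v1b2 promoter (chr8:69088546-69088746, plus strand): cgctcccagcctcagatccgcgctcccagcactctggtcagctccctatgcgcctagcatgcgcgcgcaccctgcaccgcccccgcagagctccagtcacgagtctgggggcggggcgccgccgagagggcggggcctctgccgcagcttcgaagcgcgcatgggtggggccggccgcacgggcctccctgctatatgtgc
Ulk1 promoter (chr5:110810093-110810293, plus strand): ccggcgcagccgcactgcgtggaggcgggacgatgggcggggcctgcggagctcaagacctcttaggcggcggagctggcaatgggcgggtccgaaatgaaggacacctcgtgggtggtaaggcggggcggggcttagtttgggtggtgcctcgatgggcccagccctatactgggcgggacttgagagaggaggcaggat
Ctsb intron (chr14:63132323-63132523, plus strand): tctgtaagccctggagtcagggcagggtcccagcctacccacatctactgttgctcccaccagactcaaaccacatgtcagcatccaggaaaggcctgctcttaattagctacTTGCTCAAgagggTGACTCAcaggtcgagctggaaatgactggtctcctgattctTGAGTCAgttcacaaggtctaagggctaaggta

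The Ctsh and Tfeb windows each held an AP-1 match, and the Ctsb window held 2 AP-1 matches and a C/EBP match. The Ulk1 and Atp6v1b2 windows held none of these letters.

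All 4 libraries carry the same library batch label, and their peak lists differed in size. Control 1 had 38048 peaks, control 3 had 16097, LysMCre+ 1 had 65421 and LysMCre+ 2 had 55581. Together the peaks covered 15.3, 5.77, 26.5 and 24.3 Mb in the same order. The files hold no read totals, so the lowest local background among the peaks of a library stands for its depth, at 1.97, 1.06, 1.33 and 1.08 reads. Control 3 stood apart from the other libraries, with the fewest peaks and a median of 20 reads piled up at the summits of regions called in all 4 libraries, against 97, 99 and 65 reads in control 1, LysMCre+ 1 and LysMCre+ 2. Fold enrichment is the ratio of reads at the summit of a peak to the local background of the same library, and a region not called in a library has no value there. Across the 15199 regions called in all 4 libraries, Pearson's r of log2 fold enrichment was 0.896 between the LysMCre+ libraries, 0.753 between the controls, 0.806 and 0.766 between control 1 and LysMCre+ 1 and 2, and 0.550 and 0.564 between control 3 and LysMCre+ 1 and 2. These correlations describe regions, which are not independent replicates. The part of depth and peak number in the results was not tested.

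The label of the cells was compared with marker genes. All 5 LPM markers (Icam2, Timd4, Selp, Cd5l and Tgfb2) had a called promoter in control 1, LysMCre+ 1 and LysMCre+ 2, and 3 of 5 had one in control 3. Icam2 encodes the LPM surface protein CD102. The highest fold enrichment at any of its regions, taken within each library, was 22.8 and 11.2 in controls 1 and 3. It was 26.0 and 24.0 in LysMCre+ 1 and 2. General macrophage markers had a called promoter for 3, 3, 5 and 5 of 5 genes in control 1, control 3, LysMCre+ 1 and LysMCre+ 2. Of the 34 regions of 5 markers of small peritoneal macrophages or monocytes, 14, 3, 28 and 28 were called in the same order. Of these 5 genes, 2, 1, 4 and 4 had a called promoter. The LPM markers also had 34 regions, of which 26, 10, 27 and 29 were called. Over all regions, the shares called were 52.0%, 21.9%, 90.7% and 77.2%. Among the markers of small peritoneal macrophages or monocytes, the highest fold enrichment within each library was at Irf4, at 16.2, 6.37, 21.6 and 15.5. Promoters of mast cell markers were called for 1, 0, 1 and 1 of 5 genes, of neutrophil markers for 1, 0, 2 and 1 of 5 and of dendritic cell markers for 2, 1, 2 and 2 of 4. No promoter of the 5 T cell markers was called in any library, and Cd79a, Cd3g, Cpa3, Mcpt4 and Ms4a2 had no region at all. The part of other cells in the results was not tested.

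Most regions of the lysosome and autophagy genes were open in both LysMCre+ libraries, and fewer passed the peak threshold in the controls. Of the 247 regions, control 1 called 139 (56.3%), control 3 called 75 (30.4%), LysMCre+ 1 called 222 (89.9%) and LysMCre+ 2 called 211 (85.4%). Both LysMCre+ libraries were above both controls, and the exact permutation p was 0.33 (two-sided), the smallest that 2 against 2 libraries can give. Over all regions, the shares were 52.0%, 21.9%, 90.7% and 77.2%, so the order of the libraries at these genes was the order of their peak lists.

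Regions called in all 4 libraries made up 73 of the 247 (29.6%), against 21.5% of all regions. A further 59 regions (23.9%) were called in every library but control 3, against 25.5% of all regions. Both LysMCre+ libraries and neither control called 55 regions (22.3%), against 22.8% of all regions. Without control 1 that count was 114 (46.3%, against 49.2% of all regions), and without LysMCre+ 2 it was 85 (37.9%, against 44.0%). Among these genes, 0 regions were called by both controls and by neither LysMCre+ library, and over all regions the share was 0.0452%. The LysMCre+ only share at these genes was therefore close to the background.

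The proteases and hydrolases had the highest shares of called regions in the controls, with 62.7% and 37.3% of 110 regions in controls 1 and 3 and 91.8% and 89.1% in LysMCre+ 1 and 2. The proton pump genes had 52.3% and 26.2% of 65 regions in the controls and 92.3% and 81.5% in the LysMCre+ libraries. The membrane protein genes had 45.0% and 15.0% of 20 regions in the controls and 80.0% and 75.0% in the LysMCre+ libraries. The autophagy genes had 51.9% and 26.9% of 52 regions in the controls and 86.5% in each LysMCre+ library. In every group, control 3 had the lowest share and both LysMCre+ libraries lay above both controls.

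**Figure D1:**
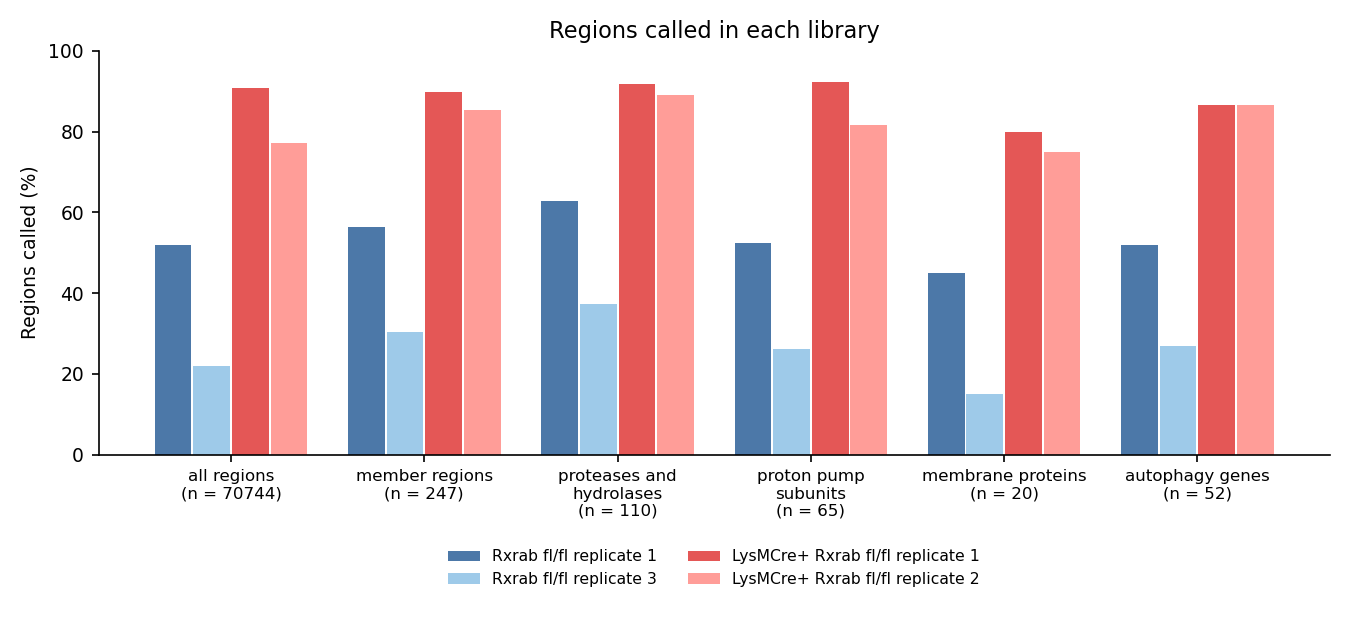
Bars give the percentage of regions called in each library (y axis, %) for all 70744 regions, the 247 regions of the 40 genes and each role group. In each set control 3 is lowest, from 15.0% in the membrane protein genes to 37.3% in the proteases and hydrolases, and both LysMCre+ bars stand above both control bars.

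When the 16097 peaks of lowest q value were taken from each library, more regions of these genes were called in the controls only than in the LysMCre+ libraries only. Of 101 regions still called, 7 (6.93%) were called in both LysMCre+ libraries only, against 7.83% of all regions. In the controls only, 12 (11.9%) were called, against 7.21% of all regions. The 12 control regions comprised 6 of proteases (2 of Ctsb and 1 each of Ctsc, Ctsd, Ctsl and Ctsz), 4 of pump subunits (2 of Atp6v1a and 1 each of Atp6v0d2 and Atp6v1b2), the Mcoln1 promoter and an intron region of Tfeb. All 12 were called in all 4 libraries when every peak was kept. The 7 LysMCre+ regions comprised 2 of Atg7 and 1 each of Ctsh, Psap, Atp6v0a1, Atp6v0c and Atp6v0d1.

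Promoters of the lysosome and autophagy genes were open in all 4 libraries for most of the genes. A promoter region overlapped the window from 1 kb before a TSS to 200 bp after it. Such a region was called for 37 and 32 of the 40 genes in controls 1 and 3 and for 36 and 38 genes in LysMCre+ 1 and 2. Among 20021 autosomal protein-coding genes, the shares were 55.5%, 40.9%, 62.2% and 59.5% in the same order. For 32 genes (80.0%) it was called in all 4 libraries, against 40.8% of the protein-coding genes. With equal numbers of peaks, 20 genes (50.0%) had a promoter called in all 4 libraries, against 31.8%.

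Of the 8 remaining genes, Atp6v0d2, a tissue-restricted pump subunit, had no promoter region in any library. Becn1, which encodes a subunit of the lipid kinase that starts autophagosome formation, had a promoter fold enrichment of 12.9 in control 1, 17.5 in LysMCre+ 1 and 12.1 in LysMCre+ 2 and was not called in control 3. The promoter of Cd63, a tetraspanin of late endosomes and lysosomes, had 8.21, 9.89 and 4.00 in the same 3 libraries. Ctss, a cysteine protease of antigen-presenting cells, had a weak promoter at 3.87, 5.21 and 5.57. Each of these 3 promoters was called in every library but control 3. The Lamp1 promoter was called in control 1 at 9.09 and in LysMCre+ 1 at 6.60 and in no other library. The promoter of Atp6v0c, which encodes the proteolipid of the membrane ring of the pump, was called in control 1 at 3.82 and in LysMCre+ 2 at 2.80. The promoter of Cln3, the gene mutated in juvenile Batten disease, was called in LysMCre+ 2 alone, at 2.96. Gpnmb, a lysosomal glycoprotein induced in lipid-laden macrophages, had 5 regions and none of them was called in a control. Its region 5.1 kb upstream had 7.38 and 4.78 and its region 3.2 kb downstream of the TSS had 5.56 and 5.43 in LysMCre+ 1 and 2, while its promoter was called in LysMCre+ 2 alone, at 4.08.

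The 55 regions called in the LysMCre+ libraries only lay away from promoters and were weak. They belonged to 24 genes, and 34 were in introns, 15 between genes, 4 in exons and 2 in promoters. The promoter share was 3.64%, against 8.78% of all regions called in the LysMCre+ libraries only, and their median distance from the start site of the gene was 13.3 kb. Median fold enrichment was 6.01 in LysMCre+ 1 and 5.63 in LysMCre+ 2, against 6.88 and 5.77 for all such regions. The 73 regions called in all 4 libraries were stronger than these 55 and closer, with medians of 11.8 and 9.05 in the LysMCre+ libraries, against 15.1 and 12.0 for all regions called in 4 libraries. Their median distance was 1.80 kb, and 35 of them (47.9%) lay in promoters, against 51.5% of all such regions.

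By gene, Ctsc and Atp6v1b2 had the most LysMCre+ only regions, with 6 each of 18 and 16 regions. Ctsh and Atg7 had 5 each of 10 and 17, and Map1lc3b had 4 of 8. Ctsc, Atg7 and Atp6v1b2 also had the most regions of any of these genes. By role group, the counts were 24 of 110 regions (21.8%) for proteases and hydrolases and 16 of 65 (24.6%) for pump subunits. They were 3 of 20 (15.0%) for membrane proteins and 12 of 52 (23.1%) for autophagy genes. The share over all regions was 22.8%, close to that of each group but the membrane proteins.

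The intron region of Ctsh at chr9:90067300-90067779, 13.3 kb downstream of the TSS, was far stronger than the rest and was singled out after its values were seen. Ctsh encodes cathepsin H, an aminopeptidase of the lysosome. Its fold enrichment was 19.9 in LysMCre+ 1 and 15.5 in LysMCre+ 2, with 74 and 54 reads at the summit, and it was called in neither control. It ranked 23 of the 16133 regions of that class by mean log2 fold enrichment. With equal peak numbers it stayed called in both LysMCre+ libraries. That setting only removes peaks, so no control could have called it there. The next member of the class was an intron region 10.6 kb into Asah1, the acid ceramidase gene, at 10.5 and 9.27, which ranked 1565. The Ctsh promoter, in contrast, was among the strongest regions in every library, at 21.5 and 14.0 in controls 1 and 3 and at 23.1 and 19.4 in LysMCre+ 1 and 2.

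A pair of intron regions of Atg7, which encodes the activating enzyme of the autophagy conjugation systems, were also called in the LysMCre+ libraries only when peak numbers were equal. At 71.4 kb from the TSS, the fold enrichment was 7.39 in control 1, 20.9 in LysMCre+ 1 and 15.3 in LysMCre+ 2. At 110.9 kb, it was 7.41, 17.3 and 12.0 in the same libraries. The region at 32.5 kb in the Atp6v0d1 gene body, nearest to the TSS of Hsd11b2, had 4.05, 14.1 and 11.7. These 3 regions were called in control 1 well below both LysMCre+ libraries and were not called in control 3. The gap was smaller at the regions of Psap (6.70, 9.85 and 8.64) and Atp6v0c (5.37, 6.12 and 5.92), which were not called in control 3 either. With no value in control 3, none of the 5 could enter the test over all 4 libraries. Without control 3, the change was 1.05 at the Atg7 region at 71.4 kb and 1.44 at the Atp6v0d1 region. The 5 regions were picked by their calls in these same libraries, so these changes are no separate support.

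**Figure D2:**
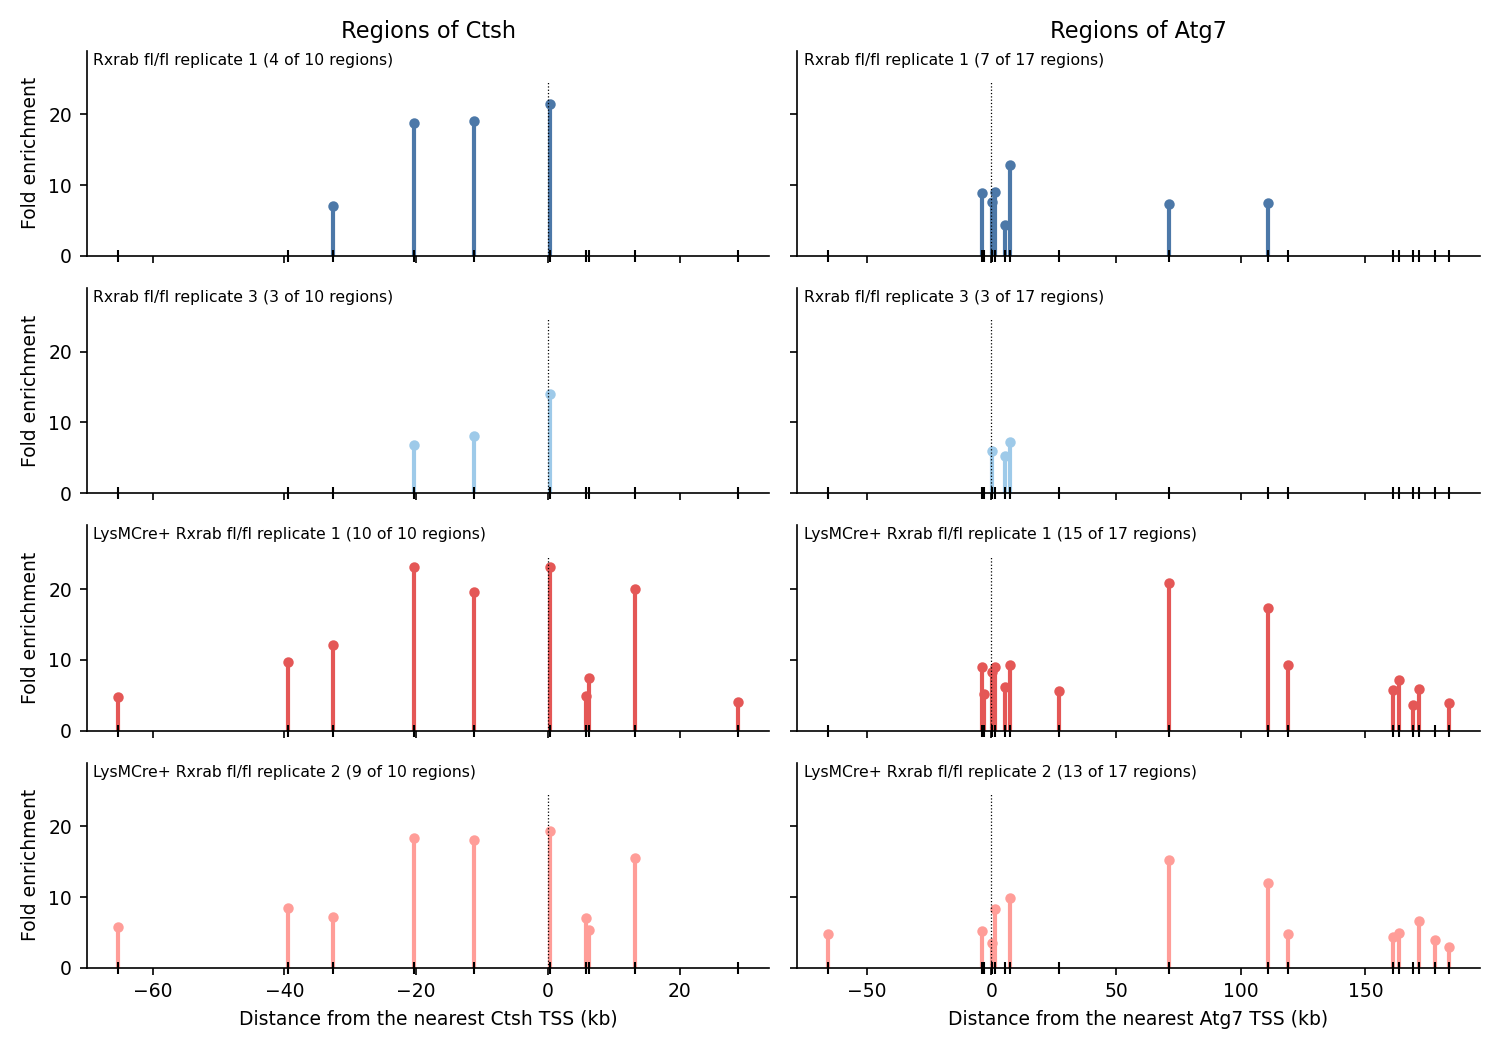
Stems give the fold enrichment (y axis) of each called region by its distance from the nearest TSS of Ctsh or Atg7 (x axis, kb), with 1 row for each library and ticks on the axis for all regions of the gene. Ctsh had 4, 3, 10 and 9 of 10 regions called and Atg7 7, 3, 15 and 13 of 17 in control 1, control 3, LysMCre+ 1 and LysMCre+ 2, and the Ctsh stem at 13.3 kb is missing from both controls.

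The size of the signal was compared over regions that every library called. For the test with limma, the median of each library over those regions was subtracted from its log2 fold enrichment, and a region was called at an adjusted p under 0.05 and a log2 change past 1. The change is LysMCre+ minus control throughout, and errors are the standard errors (SE) of limma from 2 libraries a genotype. Values at the lysosome and autophagy genes were more often lower than higher in the LysMCre+ libraries relative to other regions. The median change of the 73 regions was −0.27, against −0.087 over all 15199 regions, and with no centring these medians were 0.098 and 0.28. They were −0.13 and −0.052 with equal numbers of peaks, and −0.14 and 0.043 with centring on promoters. Negative changes were found at 54 of the 73 regions (74.0%), against 59.0% of all regions, and the changes ranged from −1.28 to 0.68.

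No region of the 40 genes passed limma on fold enrichment in either direction. Over all regions, limma called 0.0395% higher and 0.0461% lower. At an unadjusted p under 0.05, 26 of the 73 regions passed (35.6%), 21 lower and 5 higher, against 22.0% of all regions. After centring, both LysMCre+ libraries lay below both controls at 31 regions (42.5%), against 32.9% of all regions, and above both at 12 (16.4%), against 22.3%. Without control 1, limma called 7 of 73 regions lower and 0 higher, against 3.55% of all regions lower and 1.61% higher. Without control 3, it called 8 of 132 lower and 3 higher, against 1.21% and 2.21%, and without LysMCre+ 1 it called 1 of 73 lower, against 0.0591%. Without LysMCre+ 2, it called 0 of 75 in either direction. The 7 without control 1 were at Atp6v0d2, Ctsa, Ctsb, Ctsd, Grn, Tfeb and Ulk1. The 3 called higher without control 3 were the Atg7 region at 71.4 kb, the Atp6v0d1 region at 32.5 kb and a region 6.3 kb upstream of Cd63. Those called lower without control 3 included the named regions of Tfeb, Atp6v1b2, Ulk1, Ctsb, Ctsa, Ctsc and Map1lc3b, and the 1 without LysMCre+ 1 was at Tfeb.

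Fold enrichment is a ratio to the local background, so the reads at the summit were tested as well. The whole number of reads piled up at each summit was solved from the fold enrichment and p-value of the peak, scaled by the median of each library and tested in the same way. On this measure, 7 of the 73 regions fell and 3 rose (13.7%), against 4.98% of all regions lower and 2.49% higher. The 7 that fell were at Tfeb, Atp6v1b2, Ulk1, Ctsb, Atg7, Ctsc and Atp6v1d, and the 3 that rose were 2 at Atp6v0c and 1 at Tfeb. Without LysMCre+ 2, 0 regions passed in either direction, here and over all regions. Without control 3, 15 of 132 regions fell and 6 rose (15.9%), against 13.1% of all regions in both directions. Without control 1, 7 fell and 5 rose (16.4%), against 11.5%, and without LysMCre+ 1, 4 fell and 1 rose (6.85%), against 4.43%.

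The median change was −0.36 over 35 promoter regions, against −0.17 over 7832 promoter regions of all genes, and −0.24 over 38 regions outside promoters, against 0.016 over 7367 such regions. With no centring, 0.37 is added to each of these medians, so that the negative ones at these genes lose their sign. Over the 33 regions at the own promoters of these genes the median was −0.42. On the pileup the median was −0.21 over the 35 regions, against −0.19 over all promoter regions. Over the 38 it was −0.26, against 0.0069 over all regions outside promoters. The order of the 35 and the 38 was therefore not the same on both measures. Over the 33 regions at own promoters the pileup median was −0.28, below that of the 38, as on fold enrichment. After centring, the medians of the 73 regions were −0.20 in control 1, −0.12 in control 3, −0.36 in LysMCre+ 1 and −0.41 in LysMCre+ 2. On fold enrichment these regions were thus weaker than the median region in every library, and most so in the LysMCre+ libraries. On the pileup the medians were 0.058, 0, −0.075 and 0.086 in the same order, while the median change per region was −0.26, against −0.10 over all regions.

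Among the 17 genes of proteases, hydrolases and their precursors, limma called 0 of 40 regions on fold enrichment. At an unadjusted p under 0.05, 13 passed (32.5%), against 22.0% of all regions. On the pileup 2 fell, 0 rose and 38 did not pass, and the share called was 5%, against 7.48% of all regions. The median change was −0.18, which became 0.19 with no centring and −0.15 on the pileup. A negative change was found at 28 regions (70%), against 59.0% of all regions.

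Ctsb encodes cathepsin B, an abundant cysteine protease. Its intron region 10.0 kb from the TSS (chr14:63132224-63132751) had a fold enrichment of 11.9 and 7.20 in controls 1 and 3 and of 6.23 and 5.83 in LysMCre+ 1 and 2. Both LysMCre+ libraries lay below both controls. The change was −0.98 ± 0.21 in log2 fold enrichment (adjusted p = 0.0629, limma), and on the pileup the region fell by 1.06 (adjusted p = 0.0272, limma).

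Ctsc encodes cathepsin C, which activates granule serine proteases. The region 6.5 kb upstream of Ctsc had 18.1 and 8.49 in controls 1 and 3 and 12.0 and 9.21 in LysMCre+ 1 and 2. These raw values overlapped, and after centring both LysMCre+ libraries lay below both controls. The change was −0.60 ± 0.21 (adjusted p = 0.125, limma), while the summit pileup, at 61, 17, 27 and 20 reads, fell by 1.34 (adjusted p = 0.0206, limma).

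The promoter of Ctsa, the protective protein of lysosomal sialidase and galactosidase, gave opposite signs on the 2 measures. This region of 1484 bp is nearest to the TSS of Neurl2. Its fold enrichment was 9.09 and 5.56 in controls 1 and 3 and 4.93 and 4.49 in LysMCre+ 1 and 2, a change of −0.96 ± 0.21 (adjusted p = 0.0629, limma). Its pileup was 83 and 13 reads in the controls and 129 and 95 reads in the LysMCre+ libraries, a log2 change of 0.89 (adjusted p = 0.0449, limma) that was under the size threshold. The local background was 8.24 and 1.52 reads in the controls and 25.4 and 20.4 reads in the LysMCre+ libraries, higher in both of the latter.

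The Asah1 promoter had a fold enrichment of 24.9 and 13.3 in controls 1 and 3 and of 19.4 and 16.0 in LysMCre+ 1 and 2, with a change of −0.42 ± 0.21 (adjusted p = 0.255, limma). The region 73.8 kb from the TSS of Lgmn, the legumain gene, lies past the 3′ end of the gene and was assigned by the nearest TSS. It had 7.10 and 4.38 in controls 1 and 3 and 12.5 and 10.6 in LysMCre+ 1 and 2. Both LysMCre+ libraries were above both controls, and the change was 0.68 ± 0.21 (adjusted p = 0.104, limma). At the promoter of Smpd1, the acid sphingomyelinase gene, the values were 17.1 and 7.27 in the controls and 20.2 and 22.2 in the LysMCre+ libraries, a change of 0.55 ± 0.23 (adjusted p = 0.187, limma) that became 0.077 without control 3. The region 20.3 kb upstream of Ctsh had 18.8 and 6.79 in the controls and 23.1 and 18.4 in the LysMCre+ libraries. Its raw values overlapped, and its change of 0.50 ± 0.23 (adjusted p = 0.221, limma) became −0.091 without control 3. The strongest region of the protease and hydrolase genes in the controls, 12.6 kb into Lgmn, had 25.8 and 15.4 in controls 1 and 3 and 23.6 and 22.9 in LysMCre+ 1 and 2. It was named for its level after the values were seen, and its change was −0.15.

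**Figure D3:**
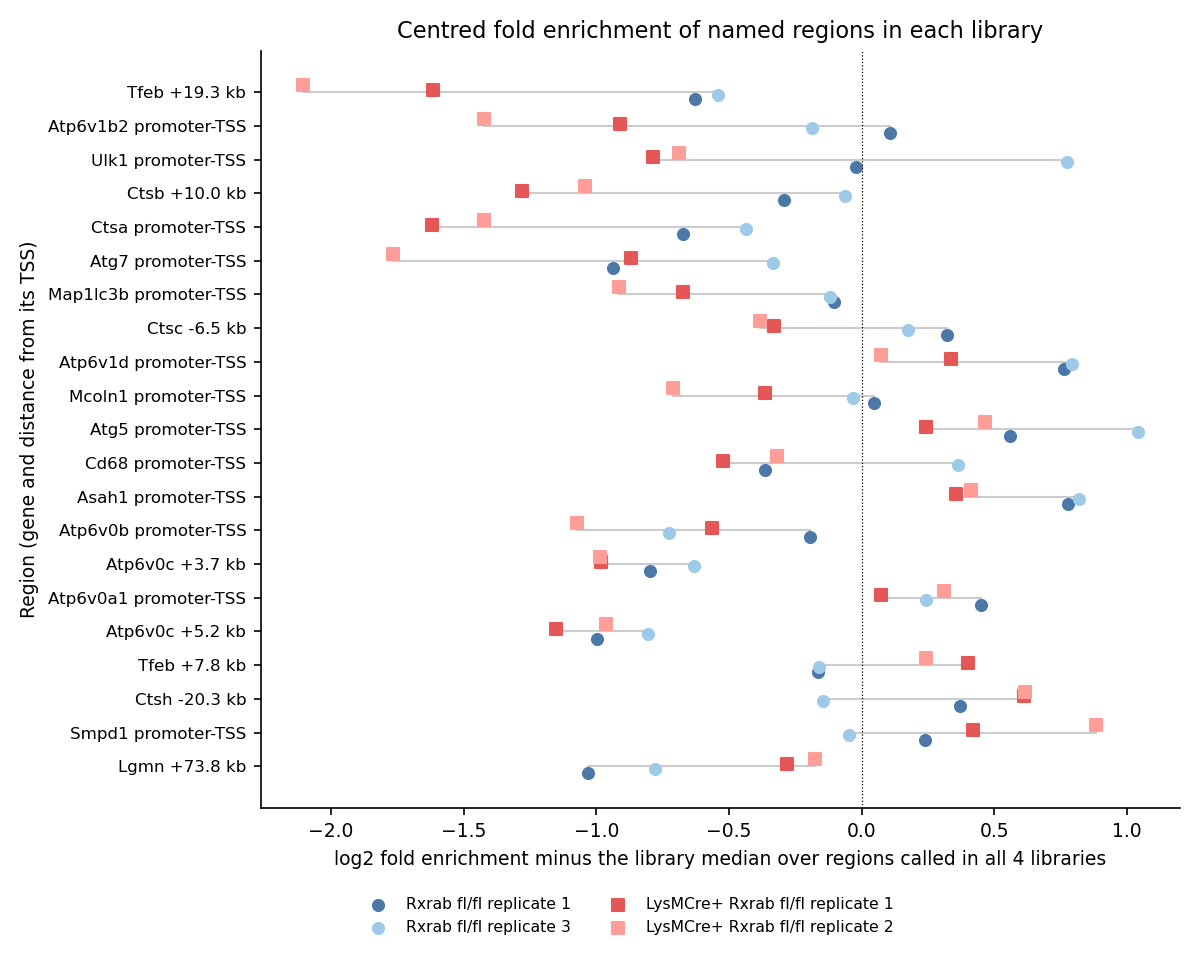
Points give log2 fold enrichment minus the library median (x axis) in each library for the 21 named regions (y axis), from the most negative change, −1.28 at Tfeb, to the most positive, 0.68 at Lgmn. At the 5 regions at the top both LysMCre+ squares lie left of both control circles, and at the 4 at the bottom they lie right of them.

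Among the 10 genes of pump subunits, limma called 0 of 17 regions on fold enrichment. At an unadjusted p under 0.05, 7 passed (41.2%), against 22.0% of all regions. On the pileup 2 fell, 2 rose and 13 did not pass, and the share called was 23.5%, against 7.48% of all regions. The median change was −0.36, and 15 of 17 changes were negative (88.2%, against 59.0% of all regions). With no centring the median was 0.0096, and on the pileup it was −0.36.

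Atp6v1b2 encodes a subunit of the cytosolic head of the pump, which hydrolyses ATP. Its promoter (chr8:69088467-69088935) had a fold enrichment of 15.6 and 6.60 in controls 1 and 3 and of 8.05 and 4.48 in LysMCre+ 1 and 2. The raw values of control 3 and LysMCre+ 1 overlapped, and after centring both LysMCre+ libraries lay below both controls. The change was −1.13 ± 0.23 in log2 fold enrichment (adjusted p = 0.0611, limma), and on the pileup the promoter fell by 1.30 (adjusted p = 0.0270, limma), with 88 and 13 reads in the controls and 37 and 17 in the LysMCre+ libraries.

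Atp6v1d encodes a subunit of the central stalk of the pump. Its promoter region, shared with Eif2s1, had a fold enrichment of 24.6 and 13.0 in controls 1 and 3 and of 19.1 and 12.6 in LysMCre+ 1 and 2. The raw values overlapped. Its change was −0.57 ± 0.21 (adjusted p = 0.148, limma), and its pileup fell by 1.13 (adjusted p = 0.0278, limma).

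A pair of regions assigned to Atp6v0c rose on the pileup only, and both overlap Amdhd2, the neighbouring gene. The region 5.2 kb from the Atp6v0c TSS lies in the Amdhd2 promoter. Its pileup was 87 and 17 reads in controls 1 and 3 and 219 and 142 reads in LysMCre+ 1 and 2, and rose by 1.33 (adjusted p = 0.0187, limma). Its fold enrichment was 7.26, 4.31, 6.80 and 6.17 in the same order, a change of −0.16 ± 0.21. The region 3.7 kb from the TSS had 125, 22, 260 and 147 reads, a rise of 1.03 (adjusted p = 0.0288, limma), and a fold enrichment of 8.34, 4.85, 7.65 and 6.07, a change of −0.27 ± 0.21. In both regions the reads at the summit were highest in the LysMCre+ libraries and the ratio to the local background was not.

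The Atp6v0b promoter, of another proteolipid subunit of the membrane ring, had a fold enrichment of 12.7 and 4.55 in controls 1 and 3 and of 10.2 and 5.71 in LysMCre+ 1 and 2. Its change of −0.36 ± 0.25 became 0.0096 with no centring. Leaving out each library in turn, it ranged from −0.96 without control 3 to −0.092 without control 1. The Atp6v0a1 promoter, of a membrane subunit that takes part in proton transport, had 19.8 and 8.90 in the controls and 15.9 and 14.9 in the LysMCre+ libraries. Its change of −0.16 ± 0.21 became 0.21 with no centring. Over the same fits, it ranged from −0.59 without control 3 to −0.038 without LysMCre+ 1. Neither passed limma, and the libraries of the genotypes overlapped at both.

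Among the 6 genes of membrane proteins, 3 regions were called in all 4 libraries, and limma called 0 of them on fold enrichment. At an unadjusted p under 0.05, 1 passed (33.3%), against 22.0% of all regions. On the pileup limma called 0 of the 3, against 7.48% of all regions. Their median change was −0.42, and it was −0.051 with no centring and 0.33 on the pileup. The Mcoln1 promoter, printed above with its CLEAR-like matches, had a fold enrichment of 15.0 and 7.34 in controls 1 and 3 and of 11.8 and 7.33 in LysMCre+ 1 and 2. Raw values overlapped, and the change was −0.54 ± 0.22 (adjusted p = 0.172, limma). The promoter of Cd68, a glycosylated lysosomal protein used as a macrophage marker, had 11.3 and 9.67 in the controls and 10.5 and 9.64 in the LysMCre+ libraries, a change of −0.42 ± 0.25 (adjusted p = 0.339, limma). Its pileup of 291 and 63 reads in the controls and 397 and 302 in the LysMCre+ libraries changed by 0.49 (adjusted p = 0.158, limma). The region 0.9 kb from the Cln3 TSS, nearest to Apobr, had 12.9 and 5.30 in the controls and 12.6 and 10.9 in the LysMCre+ libraries, a change of 0.13 ± 0.22.

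Among the 7 autophagy genes, limma called 0 of 13 regions on fold enrichment. At an unadjusted p under 0.05, 5 passed (38.5%), against 22.0% of all regions. On the pileup 3 fell, 1 rose and 9 did not pass, and the share called was 30.8%, against 7.48% of all regions. The median change was −0.38, with 9 negative changes (69.2%, against 59.0% of all regions). With no centring the median was −0.013, and on the pileup it was −0.44.

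Tfeb encodes a transcription factor that binds CLEAR elements, and it held the most negative change of all 73 regions. Its intron region 19.3 kb from the TSS (chr17:47757034-47757487) had a fold enrichment of 9.38 and 5.17 in controls 1 and 3 and of 4.94 and 2.79 in LysMCre+ 1 and 2. Both LysMCre+ libraries lay below both controls. The change was −1.28 ± 0.23 (adjusted p = 0.0545, limma), just outside the threshold, and the pileup fell by 1.19 (adjusted p = 0.0206, limma), with 87 and 17 reads in the controls and 39 and 24 in the LysMCre+ libraries. On fold enrichment the region passed without control 1, without control 3 or without LysMCre+ 1, and over the 7 alternatives computed for each named region the adjusted p from limma ranged from 0.000778 without control 1 to 0.964 with no centring.

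Another region of Tfeb went the other way. Past the 3′ end of the gene, 7.8 kb from its last start site, the fold enrichment was 12.9 and 6.72 in controls 1 and 3 and 20.0 and 14.2 in LysMCre+ 1 and 2. Both LysMCre+ libraries were above both controls, the change was 0.49 ± 0.21 (adjusted p = 0.195, limma), and the pileup rose by 1.02 (adjusted p = 0.0286, limma). The change became 0.15 without control 3. At the 2 Tfeb promoter regions the changes were 0.095 and 0.17. An intron region 16.5 kb from a Tfeb start site, chosen after its values were seen, had 8.31 in control 1, 16.7 in LysMCre+ 1 and 11.6 in LysMCre+ 2 and was not called in control 3.

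Ulk1 encodes the kinase that starts autophagy. Its promoter (chr5:110809875-110810429) had a fold enrichment of 14.3 and 12.9 in controls 1 and 3 and of 8.78 and 7.46 in LysMCre+ 1 and 2. All LysMCre+ values lay below all control values, before and after centring. The change was −1.11 ± 0.26 (adjusted p = 0.0649, limma), and the pileup fell by 1.08 (adjusted p = 0.0358, limma). On fold enrichment the promoter passed without control 1 or without control 3, and over the 7 alternatives computed for each named region the adjusted p from limma ranged from 0.000217 without control 1 to 0.984 with no centring. Its change was −1.51 without control 1, and it was the 1 region of these genes that passed with equal numbers of peaks.

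The Atg7 promoter had 7.58 and 5.97 in controls 1 and 3 and 8.29 and 3.53 in LysMCre+ 1 and 2. These values overlapped, with a change of −0.68 ± 0.29 (adjusted p = 0.199, limma), while the pileup fell by 1.30 (adjusted p = 0.0371, limma). The change in fold enrichment ranged from −1.13 without LysMCre+ 1 to −0.23 without LysMCre+ 2. The promoter of Map1lc3b, which encodes the LC3 protein that coats autophagosomes, had 13.5 and 6.92 in the controls and 9.50 and 6.38 in the LysMCre+ libraries, a change of −0.68 ± 0.21 (adjusted p = 0.102, limma). The promoter of Atg5, part of the complex that attaches LC3 to membranes, had 21.4 and 15.5 in the controls and 17.9 and 16.6 in the LysMCre+ libraries, a change of −0.45 ± 0.23 (adjusted p = 0.271, limma). The Sqstm1 promoter, of the autophagy receptor p62, had a change of −0.27.

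E-box letters were frequent in the promoters of these genes. Of the 40 promoters, 14 (35.0%) held CACGTG, against 7.15% of 32851 RefSeq promoters of the same length, and 10 (25.0%) held the CLEAR-like letters, against 2.25%. The M-box, a related element, was found in 4 promoters (10.0%), of Atp6v0c, Ctss, Grn and Tpp1, against 0.986%. Matches to the other motifs were closer to the share over all promoters, with AP-1 at 12.5% against 7.81%, C/EBP at 15.0% against 10.8%, PU.1 at 5.00% against 3.20% and GATA at 5.00% against 11.2%. The DR1 element, a spacing bound by RXR heterodimers, was found in 0 of the 40 promoters and 0.0396% of all promoters, and in none of the 247 regions. A match or its absence describes these letters in these windows only.

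In regions called in all 4 libraries, within 100 bp of the summit, the CLEAR-like letters were found in 10 of 73 (13.7%), against 2.43% of all such regions, the E-box in 16.4% against 7.61%, the M-box in 6.85% against 1.29%, AP-1 in 20.5% against 12.3% and GATA in 1.37% against 4.99%. Of the 55 regions called in the LysMCre+ libraries only, 0 held the CLEAR-like letters, against 0.620% of all such regions, 1 (1.82%) held an E-box, against 3.29%, 8 (14.5%) held the PU.1 letters, against 10.5%, and 6 (10.9%) held AP-1, against 10.5%. The C/EBP letters were found in 1 of the 55 (1.82%), against 9.48%, and the GATA letters in 5 (9.09%), against 5.60%. The median change in log2 fold enrichment was −0.39 over the 10 regions of these genes with the CLEAR-like letters and −0.27 over the 63 without, against −0.20 and −0.084 over all regions with and without them. With no centring, 0.37 is added to each of these medians. On the pileup the median was −0.19 over the 10 regions and −0.26 over all regions with the letters. That order was the reverse of the −0.39 and −0.20 on fold enrichment. Pileup medians of regions without the letters were not computed. Median GC content was 59.2% in the 73 regions and 58.2% in all regions called in 4 libraries.

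**Figure D4:**
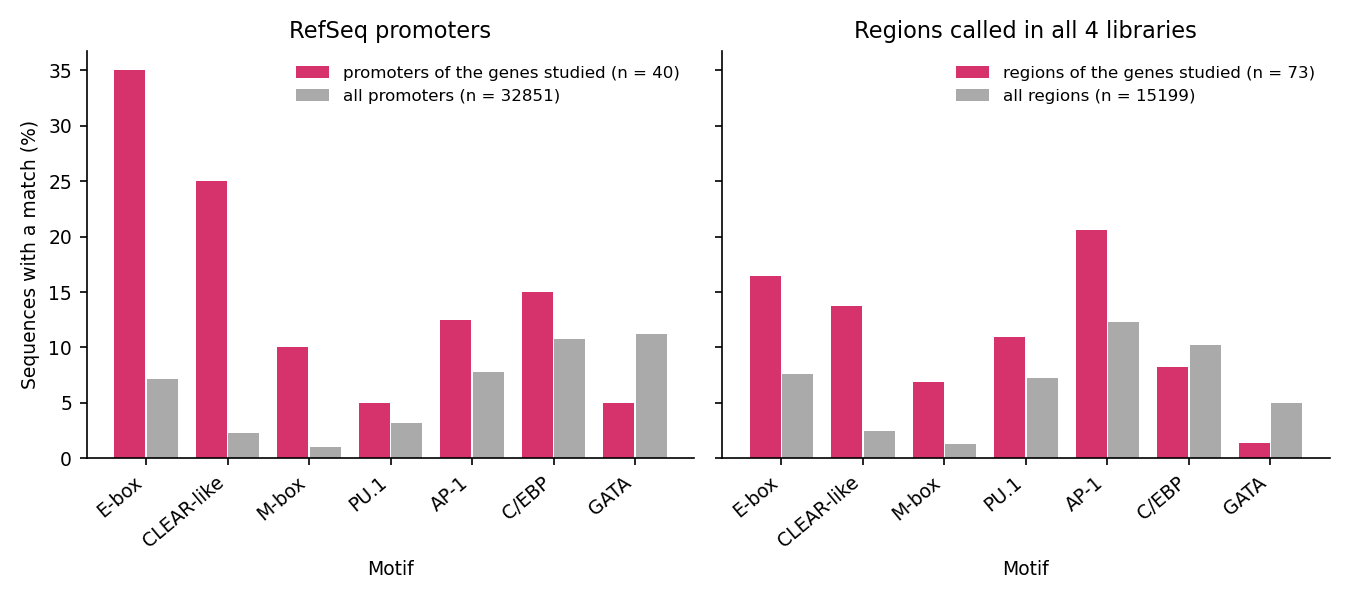
Bars give the percentage of sequences (y axis, %) with at least 1 match to each motif, on the left in 300-base RefSeq promoters and on the right within 100 bp of the summit of regions called in all 4 libraries. The E-box and CLEAR-like letters are at 35.0% and 25.0% of the promoters of these genes, against 7.15% and 2.25% of all promoters.

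The other genes of the pathway on a separate list of 81 lysosome and autophagy genes had 406 regions. Of these, 104 (25.6%) were called in the LysMCre+ libraries only, against 22.8% of all regions. In all 4 libraries 117 (28.8%) were called, against 21.5%. Limma on fold enrichment called 0 of the 117, with 27 (23.1%) at an unadjusted p under 0.05, against 22.0% of all regions. On the pileup 3 rose and 4 fell (5.98%), against 7.48% of all regions in both directions. Their median change was −0.069, which became 0.30 with no centring. There were 63 negative and 54 positive changes (53.8% negative, against 59.0% of all regions). By role group, the median change was −0.22 over 20 regions of other membrane proteins, −0.26 over 7 of the pump and −0.23 over 34 of autophagy genes, and 0.075 over 36 of hydrolases and 0.037 over 20 of regulators. The most negative changes on this list were at the promoters of Atg4b (−0.77) and Atg3 (−0.76), a protease and a conjugating enzyme of the LC3 pathway, whose pileups fell by 1.24 and 1.26 (adjusted p = 0.0480 and 0.0291, limma). The Atg3 promoter had a fold enrichment of 25.9 and 13.1 in controls 1 and 3 and of 17.2 and 11.4 in LysMCre+ 1 and 2. The most positive change was at a region in the gene body of Uvrag, 187 kb from its TSS and nearer to that of Wnt11, with 18.7 and 5.00 in the controls and 28.9 and 22.9 in the LysMCre+ libraries (change 1.04 ± 0.28, adjusted p = 0.0804, limma), and its pileup rose by 1.51 (adjusted p = 0.0183, limma). Laptm5, which encodes a lysosomal membrane protein of blood cells, had a region 35 kb upstream with 9.45 and 4.33 in the controls and 15.5 and 13.0 in the LysMCre+ libraries, a change of 0.78 ± 0.21 (adjusted p = 0.0804, limma), and its pileup rose by 1.07 (adjusted p = 0.0285, limma).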

How the data were processed

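The authors trimmed adaptors (cutadapt), aligned reads to mm10 with Bowtie2, removed duplicates and reads on mitochondrial and sex chromosomes, and called peaks in each library with MACS2 2.1.1 at a q value of 0.05. For each summit the deposited files give a fold enrichment, a ratio to local background. The deposited files also hold the −log10 p-value and the −log10 q-value of each peak and the offset of its summit. The authors tested read counts with edgeR through DiffBind, and no read counts were available, so that test was not repeated.

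Peaks sharing at least 1 bp were merged across libraries and placed on 45756 RefSeq transcripts by overlap. The summit pileup was solved with a pseudocount of 1. limma 3.58.1 in R 4.3.3 (lmFit, eBayes) was fitted on all regions called in all 4 libraries, with Benjamini-Hochberg adjustment over all of them, and was tested on simulated data. Other steps used Python 3.11.15, numpy 2.4.6, pandas 2.3.3, scipy 1.17.1, pysam 0.24.0 and matplotlib 3.10.9.

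Values in all 4 libraries are given for regions that passed on either measure, for the 3 largest changes in log2 fold enrichment in each direction and for examples of each role group. The members and gene lists were chosen with earlier results of these data known. Alternatives were a q value of 0.01, equal numbers of peaks, peaks reduced to summits, nearest TSS only, another promoter window, the pileup, other centrings, a mean-variance trend, adjusted p alone and each library left out.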

Additional observations from a re-analysis of the deposited data

How the results depend on the processing

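With the same number of peaks per library, regions of these genes called in the LysMCre+ libraries only went from 55 to 7, those called in the controls only from 0 to 12, genes with a promoter called in all 4 libraries from 32 to 20, and regions lower by limma from 0 to 1. The range over leaving out each library in turn was 55 to 114 for LysMCre+ only regions, 0 to 2 for control only regions, 32 to 35 for genes with a promoter called in all 4 libraries, 0 to 3 for regions higher by limma, 0 to 8 for regions lower by limma and −0.44 to −0.25 for the median change. Peaks reduced to summits gave 2 control only regions. The summit pileup gave 3 regions higher and 7 lower by limma, and over leaving out each library, an alternative added after the data were seen, these counts ranged from 0 to 6 and from 0 to 15. Centring on promoters gave 1 region lower (Tfeb) and a mean-variance trend gave 2 (Ulk1 and Atp6v1b2). With no centring, the median change reversed from −0.27 to 0.098, while the median of all regions went from −0.087 to 0.28. Of 147 values of the 21 named regions, 117 kept direction and side of the threshold, 21 kept direction and passed it, and 9 reversed. With no centring, the reversed values were 0.21 at the Atp6v0a1 promoter, 0.0096 at the Atp6v0b promoter, 0.21 and 0.098 at the Atp6v0c regions at 5.2 and 3.7 kb. On the pileup, they were 1.33 and 1.03 at the same Atp6v0c regions, 0.49 at the Cd68 promoter and 0.89 at the Ctsa promoter. Leaving out each library in turn, the change of the region 20.3 kb upstream of Ctsh ranged from −0.091 without control 3 to 0.76 without control 1. For each of these differences the cause was not tested. Where a genotype was left with 1 library, limma assumed that it varied like the other genotype. No paired analysis was possible because the genotypes share only replicate number 1. Control 3 had the fewest peaks, and a region not called there has no value in its file.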
